A study of Mus musculus with 8 samples.

Results

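Transcripts of the splicing, RNA-binding and RNA helicase families were examined in the kidneys of lupus-prone mice given propionate. The genes were taken by name from the protein-coding rows of the deposited table: the Srsf, Srrm, Clk and Luc7l families with Son and Pnisr, the Snrp, Snrnp and Lsm families, Sf3a, Sf3b and U2af, and the Prpf, Hnrnp, Rbm, Ddx and Dhx families. The table held 34 such genes among 1931 genes of all kinds. The mouse annotation GENCODE M21 has 197 protein-coding genes under the same names, so 163 of them are not analysed here. Each library came from kidney of MRL-lpr mice aged 12 weeks, a strain whose Fas mutation, carried by both groups, leads to lymphoproliferation and a lupus-like kidney disease. The control group held 4 libraries. The other 4 were from mice that drank water with 200 mM propionate for 6 weeks. Propionate is a short-chain fatty acid that microbes of the gut release from fibre. The labels do not say what the controls drank, the sex of the mice or whether each library is 1 animal. The p-values therefore set the difference between the groups against the variation between these libraries, which may not be that between animals.

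Introns are removed by the spliceosome, which assembles from small nuclear ribonucleoproteins (snRNPs), each a small nuclear RNA wrapped in a ring of Sm or LSm proteins together with proteins of its own. SR proteins, rich in arginine and serine, bind exons and recruit snRNPs, while heterogeneous nuclear ribonucleoproteins (hnRNPs) bind nuclear RNA and often act against them. CLK kinases phosphorylate SR proteins, and DEAD-box helicases remodel RNA at splicing, export and other steps. Many SR and hnRNP genes limit their own output by splicing some of their transcripts into forms with an early stop codon, which nonsense-mediated decay removes.

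The table is a selection, since every listed gene had a p-value under 0.05 in the authors' deposited table. Every gene below had therefore already passed an unadjusted test on these libraries. Of the 1931 genes in the authors' deposited table, 983 were higher with propionate and 948 lower, and about 803 genes would pass such a selection among the 16064 genes adjusted over if none differed. Libraries held 20005328 to 26711127 assigned reads. Of the kidney tubule markers looked for, 5 of 12 were in the table, 2 higher and 3 lower with propionate. One of them passed the authors' adjustment, Slc13a3, a dicarboxylate transporter, with 16430 ± 845 scaled counts in controls and 12957 ± 1532 with propionate (adjusted p = 0.0215 in the authors' deposited table). The others included Slc34a1 with 70091 ± 5575 scaled counts in controls and 79367 ± 5105 with propionate (SD, n = 4) and Lrp2 with 55276 ± 2605 and 48778 ± 813, both of the proximal tubule. Of 44 markers of glomerulus, endothelium, fibroblasts, lymphocytes, macrophages, dividing cells, fat, adrenal gland and red cells, the table held 1, the macrophage gene Cd68, with 273 ± 102 scaled counts in controls and 167 ± 76.4 with propionate (SD, n = 4). These marker lists were short. Macrophage genes outside them, such as Marco, Siglec1 and Mrc1, were also in the table and lower with propionate, and such genes were not counted. Their part in the differences of the splicing genes was not tested. In whole kidney, fewer cells of a type and less RNA per cell cannot be told apart.

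The bases before the start sites of genes that differed in opposite directions are shown here for SR proteins and Sm proteins. They are the 250 bases upstream of the RefSeq start in GRCm38.p6, 5′ to 3′. Capitals mark exact matches, on either strand, to the ETS core CCGGAA, the CCAAT box CCAAT, the GC box GGGCGG, the TATA box TATAAA, the cyclic AMP response element TGACGTCA and the NRF1 consensus, and matches can overlap or touch.
Srsf5, chr12:80945249-80945498 (+ strand): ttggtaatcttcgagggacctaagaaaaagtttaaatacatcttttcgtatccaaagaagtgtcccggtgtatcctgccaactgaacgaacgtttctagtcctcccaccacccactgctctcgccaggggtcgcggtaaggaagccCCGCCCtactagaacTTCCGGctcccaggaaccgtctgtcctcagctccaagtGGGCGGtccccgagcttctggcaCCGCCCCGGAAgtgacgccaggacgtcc
Srsf2, chr11:116853095-116853344 (- strand): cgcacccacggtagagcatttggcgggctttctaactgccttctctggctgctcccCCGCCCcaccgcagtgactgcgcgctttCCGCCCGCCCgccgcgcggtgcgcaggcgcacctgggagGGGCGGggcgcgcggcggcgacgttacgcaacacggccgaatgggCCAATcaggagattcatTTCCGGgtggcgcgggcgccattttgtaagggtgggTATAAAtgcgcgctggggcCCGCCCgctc
Snrpe, chr1:133610281-133610530 (- strand): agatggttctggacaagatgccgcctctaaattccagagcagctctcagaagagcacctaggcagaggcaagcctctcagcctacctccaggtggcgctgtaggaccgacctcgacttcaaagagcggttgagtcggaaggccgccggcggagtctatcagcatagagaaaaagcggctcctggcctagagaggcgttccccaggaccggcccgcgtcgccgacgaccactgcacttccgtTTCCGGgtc
Snrpg, chr6:86371290-86371539 (+ strand): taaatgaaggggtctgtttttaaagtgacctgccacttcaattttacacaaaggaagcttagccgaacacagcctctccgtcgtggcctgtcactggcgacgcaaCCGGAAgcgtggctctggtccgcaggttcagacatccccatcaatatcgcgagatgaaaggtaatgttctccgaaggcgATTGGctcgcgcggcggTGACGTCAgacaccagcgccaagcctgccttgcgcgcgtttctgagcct
The upstream bases of 28 of the 34 genes were in the RefSeq table. The ETS core was found in 7 of 15 genes that were lower with propionate and in 5 of 13 that were higher, and in 13.6% of the 27025 genes with such a window. The GC box was found in 11 of 15 and 8 of 13, against 35.4% of all windows' genes, and the CCAAT box in 6 of 15 and 3 of 13, against 37.5%. The TATA box was found in 3 of 15 and 0 of 13, against 14.3%. The cyclic AMP response element was found in 2 of the 28 genes and the NRF1 site in 1, against 1.77% and 0.877%. The 27025 genes were not filtered by kind or expression, unlike the 28, and a match at any start of a gene was counted. The shares are therefore not of like genes. These are counts of letters and were not tested.

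Directions differed between the roles and, in some, within them. All 7 listed snRNP and LSm genes were higher, all 4 hnRNP genes were lower, and 7 of 8 genes of the SR, speckle, CLK and Luc7l group were lower, whereas the Rbm, Prpf and helicase genes held both directions. In all, 16 of the 34 genes were higher and 18 lower, with mean scaled counts (reads divided by the authors' size factor of the library) at 1.11 to 1.37 times control in the former and at 66.8% to 91.0% of control in the latter. Once a trend with gene length and GC content was removed, as set out below, the hnRNP genes were lower in 1 of 4 and the SR group in 4 of 8, while the snRNP and LSm genes were higher in 7 of 7. The median log2 fold change of the 34 genes was -0.14, beside 0.16 for all 1792 tested genes, of which 53.2% were higher, against 47.1% of the 34. The authors' selection leaves few genes near 0, so a median can jump when few genes change side.

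By the authors' deposited table, only 2 of the 34 genes had an adjusted p under 0.05. These were Srsf5 and Pnisr, and both fell. Among all listed genes 8.13% passed there, 5.33% downward and 2.8% upward. The quasi-likelihood test of edgeR, adjusted over the listed genes, passed 34 of 34 at adjusted p-values of 0.0214 to 0.0496, where 90.2% of all tested genes passed, 48.2% upward and 42% downward. A share this near the background is not a result about these genes. Adjusted over 16064 genes, edgeR passed 0 of 34 at adjusted p-values of 0.192 to 0.444 and 0% of all tested genes, whereas at an unadjusted p under 0.05 it passed 34 of 34 and 1690 of the 1792 tested genes. DESeq2 adjusted over the listed genes passed 34 of 34 and 98.2% of all tested genes. The 2 groups did not overlap in 18 of the 34 genes, 9 higher and 9 lower, beside 47.4% of all tested genes, 25.4% higher and 22% lower. Below, "fell" is kept for the 2 genes past the authors' adjustment, and every other difference is given as values.

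**Figure D1:**
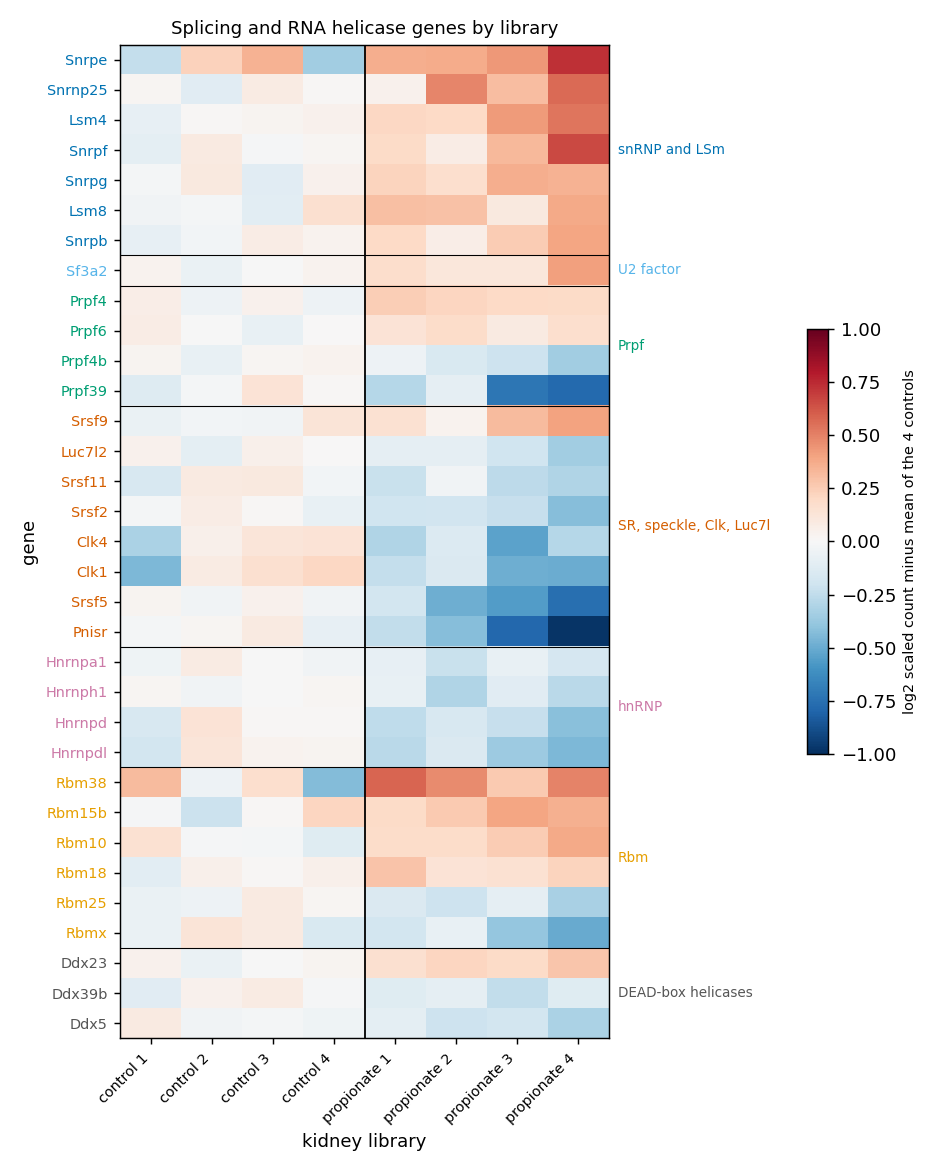
Rows are 33 of the 34 genes, grouped by role, and columns the 8 kidney libraries. Colour gives the log2 scaled count minus the mean of the 4 control libraries, so that the snRNP and LSm rows are red under propionate and most rows of the SR group blue, with the strongest colours in propionate replicate 4.

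Srsf5, an SR protein that activates splicing from exonic sites, had 2529, 2431, 2556 and 2425 scaled counts in the 4 controls and 2184, 1775, 1691 and 1470 with propionate. The groups did not overlap, and the controls lay close together while the propionate libraries spread widely. It fell from 2485 ± 67.2 to 1780 ± 298 (SD, n = 4), with a log2 fold change of -0.48 ± 0.10 (SE). The authors' deposited table gives it an adjusted p of 0.00462. By edgeR its adjusted p was 0.0214 over the listed genes, and 0.0546 without control replicate 3 (log2 fold change -0.47). Pnisr, a nuclear protein with a serine and arginine-rich region, had 774, 795, 835 and 742 scaled counts in controls and 661, 586, 456 and 397 with propionate. Again every propionate library lay below every control. It fell from 786 ± 38.9 to 525 ± 120 (SD, n = 4), with a log2 fold change of -0.58 ± 0.14 (SE). In the authors' deposited table its adjusted p was 0.0173. By edgeR over the listed genes it was 0.0263, and 0.0645 and 0.0597 without control replicate 3 and propionate replicate 3 (log2 fold changes -0.55 and -0.52). After removal of the length and GC trend, Srsf5 and Pnisr had log2 fold changes of -0.20 and -0.30, and both calls ended (edgeR adjusted p = 0.0607 and 0.0571). In the table's coordinates, which mostly differ from the GRCm38 annotation although the submitters' processing notes name mm10, Srsf5 spans bases 80992278 to 80997281 of chromosome 12 and Pnisr bases 21847583 to 21876475 of chromosome 4, both on the plus strand.

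Srsf2, the SR protein also known as SC35 that marks nuclear speckles, had 1724, 1836, 1759 and 1657 scaled counts in controls and 1515, 1527, 1483 and 1296 with propionate. All 4 propionate libraries lay below the controls, with propionate replicate 4 the lowest. Its log2 fold change was -0.26 ± 0.07 (SE) and its adjusted p was 0.0618 in the authors' deposited table, just above the threshold. With the trend removed its value hardly moved, to -0.25 (edgeR adjusted p = 0.0236 over the listed genes). Exons of Srsf2 overlap those of Mfsd11 and Mettl23 on the opposite strand, and the labels do not say whether strand was used in counting, so reads of the 3 genes cannot be told apart. This also holds for the opposite-strand overlaps named below. Srsf9 was the 1 member of this group that was higher, with 850, 874, 871 and 977 scaled counts in controls and 993, 915, 1111 and 1182 with propionate. The groups overlapped, and the log2 fold change was 0.23 ± 0.09 (SE).

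The CLK kinases Clk1 and Clk4 had lower means with propionate, but their control libraries were uneven. Clk1 had 729, 1054, 1116 and 1153 scaled counts in controls and 844, 903, 711 and 709 with propionate. Control replicate 1 lay among the propionate libraries. Clk4 had 390, 503, 529 and 535 in controls and 395, 441, 336 and 397 with propionate, again with control replicate 1 low. The log2 fold changes were -0.35 ± 0.14 (SE) for Clk1 and -0.32 ± 0.12 for Clk4, with overlapping groups in both. Srsf11, an SR-like protein, and Luc7l2, a U1 snRNP-associated protein, had log2 fold changes of -0.21 ± 0.08 and -0.18 ± 0.07 (SE), and their groups overlapped too. With the trend removed Clk1 stood at -0.022, Clk4 at 0.0024, Srsf11 at 0.048 and Luc7l2 at 0.16.

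The Sm proteins form the ring around spliceosomal snRNAs, and 4 of their genes were listed. Snrpe had 377, 523, 565 and 350 scaled counts in controls and 573, 574, 599 and 737 with propionate. The groups did not overlap, although control replicate 3 at 565 came within a few counts of the lowest propionate library, and the controls were spread over a wide range. Its means were 454 ± 106 and 621 ± 78.7 (SD, n = 4), or 0.45 ± 0.16 (SE) on the log2 scale, the largest upward difference among the 34 genes. Snrpg had 419, 454, 393 and 437 scaled counts in controls and 497, 478, 547 and 540 with propionate. Every propionate library lay above every control, and the log2 fold change was 0.28 ± 0.08 (SE). Snrpb, whose products are the SmB proteins, had 1666, 1732, 1861 and 1807 scaled counts in controls and 2022, 1845, 2101 and 2323 with propionate. Propionate replicate 2 overlapped the controls, and the log2 fold change was 0.23 ± 0.08 (SE). Snrpf had 136, 155, 144 and 147 scaled counts in controls and 166, 153, 182 and 230 with propionate, with overlapping groups and a log2 fold change of 0.33 ± 0.14 (SE), or 0.20 without propionate replicate 4.

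The LSm proteins form like rings, and Lsm4 belongs both to the nuclear ring on U6 snRNA and to the cytoplasmic ring that acts in mRNA decay. Lsm4 had 612, 655, 661 and 667 scaled counts in controls and 747, 746, 871 and 939 with propionate. Every control lay below every propionate library. Its log2 fold change was 0.35 ± 0.09 (SE), and in the authors' deposited table its adjusted p was 0.0522, the smallest of the genes that were higher. With the trend removed its log2 fold change was 0.035 (length 1.038 kb, 59.4% GC). Lsm8, the subunit that sets the U6 ring apart, had 236, 239, 224 and 270 scaled counts in controls and 298, 295, 258 and 314 with propionate. The groups overlapped through control replicate 4 and propionate replicate 3, and the log2 fold change was 0.27 ± 0.10 (SE). Snrnp25, a protein of the minor spliceosome that removes a rare class of introns, had 120, 109, 125 and 119 scaled counts in controls and 122, 166, 147 and 175 with propionate, with propionate replicate 1 inside the control range and a log2 fold change of 0.37 ± 0.15 (SE). In the authors' deposited table the adjusted p-values of the 6 snRNP and LSm genes other than Lsm4 were between 0.172 and 0.432, so none of the 7 passed.

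**Figure D2:**
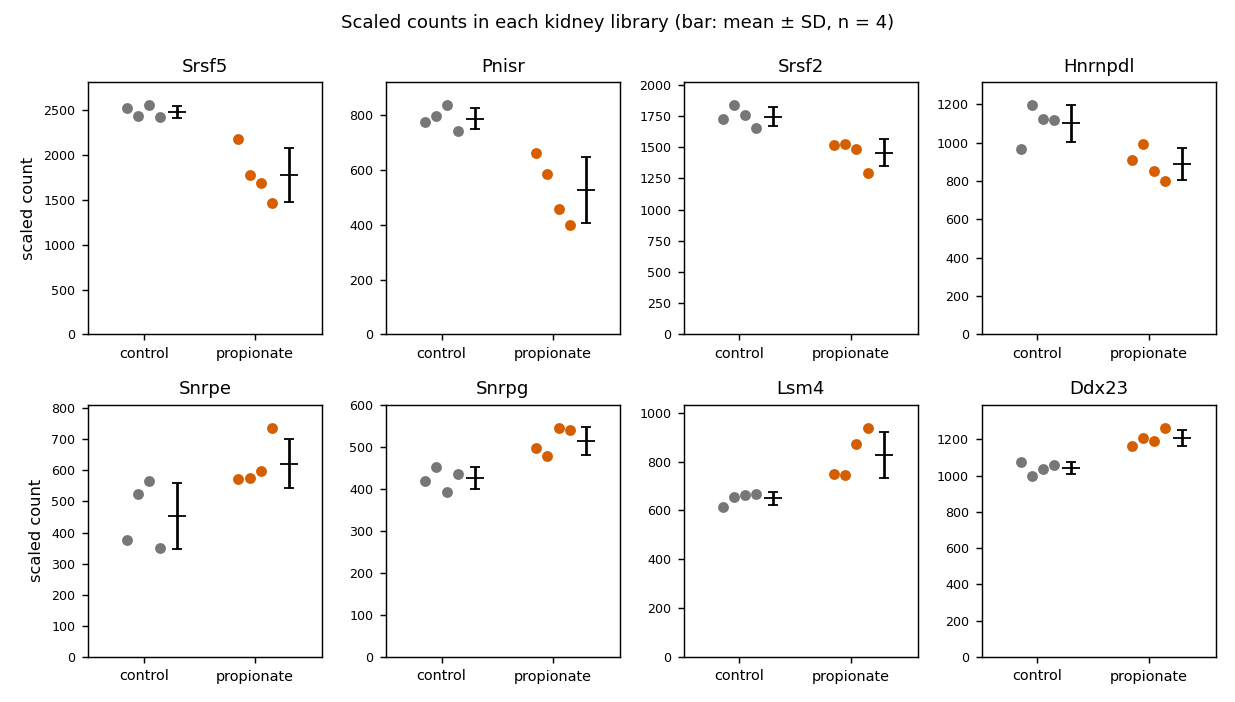
Points are the scaled counts of 8 genes in each of the 4 control and 4 propionate libraries, on axes that start at 0, and the bar beside them is the mean ± SD (n = 4). Srsf5, Pnisr, Srsf2 and Hnrnpdl lie lower with propionate and Snrpe, Snrpg, Lsm4 and Ddx23 higher, and only in Hnrnpdl do the groups overlap.

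Sf3a2, Prpf4 and Prpf6, which enter with other snRNPs, were higher before the trend removal, whereas the other listed Prpf genes were lower. Sf3a2, a subunit of the SF3a complex of the U2 snRNP, had 484, 450, 471 and 482 scaled counts in controls and 533, 511, 511 and 628 with propionate. Controls and propionate did not overlap, and propionate replicate 4 stood above the other 3. Its log2 fold change was 0.21 ± 0.08 (SE), which became 0.14 without propionate replicate 4 and -0.052 with the trend removed. Prpf4 and Prpf6, proteins of the tri-snRNP that brings U4, U6 and U5 to the spliceosome, were both higher. Prpf4 had 484, 445, 476 and 447 scaled counts in controls and 548, 536, 531 and 528 with propionate. No control reached the propionate libraries, which lay within a narrow range, for a log2 fold change of 0.21 ± 0.07 (SE), and 0.41 with the trend removed. Prpf6 had a log2 fold change of 0.14 ± 0.06 (SE), with no overlap, and 0.11 with the trend removed (edgeR adjusted p = 0.144).

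Among the other Prpf genes, Prpf39, a U1 snRNP-associated protein, had 291, 313, 349 and 321 scaled counts in controls and 261, 298, 193 and 185 with propionate. Propionate replicates 3 and 4 were far below the other 6 libraries, whereas propionate replicate 2 lay among the controls. Its log2 fold change was -0.44 ± 0.15 (SE), and -0.090 with the trend removed (edgeR adjusted p = 0.522). Part of its exon sequence overlaps that of Fkbp3 on the opposite strand. Prpf4b, a kinase of spliceosomal proteins, stood at -0.19 ± 0.07 (SE) on the log2 scale, with overlapping groups.

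The 4 hnRNP genes were all lower, by a small amount. Hnrnpdl, a close relative of Hnrnpd, had 966, 1196, 1123 and 1119 scaled counts in controls and 912, 993, 851 and 802 with propionate. Control replicate 1 lay below propionate replicate 2, so the groups overlapped, and the log2 fold change was -0.31 ± 0.09 (SE). Hnrnpd, also called AUF1, which binds AU-rich elements and affects mRNA stability, had 1356, 1660, 1526 and 1524 scaled counts in controls and 1271, 1356, 1286 and 1129 with propionate. Control replicate 1 and propionate replicate 2 were within 1 scaled count of each other, so the groups only just failed to overlap, and the log2 fold change was -0.27 ± 0.08 (SE). Hnrnph1, which binds runs of G, had 2381, 2286, 2341 and 2379 scaled counts in controls and 2231, 1905, 2167 and 1944 with propionate, with no overlap and a log2 fold change of -0.19 ± 0.06 (SE). Hnrnpa1, which binds splicing silencers, had the smallest difference of the 34 genes, -0.14 ± 0.06 (SE), with no overlap. Pseudogenes are annotated under the Hnrnpa1 name, and the labels do not say how reads shared with copies were counted. Copies under other names were not looked for, so the same limit can apply to any of the 34 genes. The authors' deposited table gives Hnrnpdl, Hnrnpd, Hnrnph1 and Hnrnpa1 adjusted p-values of 0.111, 0.146, 0.246 and 0.42. With the trend removed the log2 fold changes were -0.13, 0.041, 0.14 and 0.068 in that order.

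The RBM genes share a name and an RNA recognition motif rather than a common function, and 4 of 6 were higher. Rbm10, a regulator of alternative splicing, had 776, 691, 686 and 641 scaled counts in controls and 793, 792, 830 and 909 with propionate. Every propionate library lay above every control, and the log2 fold change was 0.25 ± 0.08 (SE). Rbm15b, an adaptor of the complex that writes m6A on RNA, had 510, 444, 521 and 599 scaled counts in controls and 590, 617, 679 and 661 with propionate. Control replicate 4 overlapped propionate replicate 1, and the log2 fold change was 0.30 ± 0.09 (SE). Rbm18 had a log2 fold change of 0.20 ± 0.07 (SE) with no overlap. Rbm38, an RNA-binding protein induced by p53, was the most weakly expressed of the 34 by scaled count, with 133, 103, 120 and 79.0 in controls and 160, 149, 128 and 151 with propionate. Control replicate 1 lay above propionate replicate 3, and the log2 fold change was 0.43 ± 0.17 (SE). Rbm25, which acts in splice site choice, was lower in every propionate library than in every control, with a log2 fold change of -0.19 ± 0.07 (SE). Rbmx, also known as hnRNP G, had overlapping groups and a log2 fold change of -0.28 ± 0.11 (SE). With the trend removed Rbm25 stood at 0.22 and Rbmx at -0.065, while Rbm10, Rbm15b and Rbm38 stood at 0.098, 0.18 and 0.18 and no longer passed (edgeR adjusted p = 0.333, 0.176 and 0.466). Rbm18 stood at 0.45 (0.00607). Exons of Rbm10 overlap Ndufb11, those of Rbm18 overlap Mrrf and those of Rbm15b overlap Dcaf1, each on the opposite strand. Rbm15b also overlaps Manf on its own strand, where strand would not separate the reads.

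Of the helicase families, which have 53 protein-coding genes in the annotation, 3 DEAD-box genes and no Dhx gene were listed. Ddx23, the U5 snRNP helicase that helps release U1 from the 5′ splice site, had 1073, 996, 1038 and 1058 scaled counts in controls and 1164, 1206, 1191 and 1265 with propionate. Both groups were narrow and did not overlap, for a log2 fold change of 0.21 ± 0.06 (SE). The adjusted p was 0.0937 in the authors' deposited table. Ddx5, a helicase also called p68 that acts in splicing and transcription, had 11466, 10537, 10646 and 10484 scaled counts in controls and 10083, 9343, 9472 and 8675 with propionate. The groups did not overlap, and the log2 fold change was -0.20 ± 0.06 (SE). Per length Ddx5 was the most abundant of the 34 transcripts, at 76.4 FPKM in controls and 66.4 with propionate, where Prpf39 was the least abundant in controls, at 1.09 FPKM. Ddx39b, the helicase UAP56 that joins splicing to mRNA export, had 1690, 1880, 1935 and 1819 scaled counts in controls and 1678, 1722, 1538 and 1684 with propionate, with overlapping groups and a log2 fold change of -0.15 ± 0.06 (SE). With the trend removed, Ddx5 stood at 0.070 and Ddx39b at -0.28 (edgeR adjusted p = 0.0122 over the listed genes).

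Companion genes were taken from lists of the same pathways. Of the splicing genes outside these families, 9 were listed, 5 higher and 4 lower, and 0 passed in the authors' deposited table. The lower ones were Nktr (log2 fold change -0.31 ± 0.09, SE), Srek1 (-0.26 ± 0.08), and the cyclins Ccnl1 (-0.33 ± 0.14) and Ccnl2 (-0.23 ± 0.07), which pair with kinases of splicing factors. The higher ones were Bud13, Ppie, Cdc5l, Sart3 and Ppil2, at 0.17 to 0.29. Other RNA-binding genes numbered 7, 3 higher (Sfpq, Khsrp and Pcbp2) and 4 lower (among them Tia1, Celf2 and Mbnl3). The exon junction helicase Eif4a3 and the decay factor Smg9 were both higher, at 0.18 ± 0.06 and 0.35 ± 0.09 (SE), and of the export and 3′ end genes Cstf1 was higher and Nxf1 lower.

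Nuclear-retained RNAs were listed in 4 cases of 7 looked for, and all 4 were lower, at a median log2 fold change of -0.65. Their lengths were 6.99 to 93.1 kb, and of all tested genes over 8 kb only 16.4% were higher. The groups overlapped in 3 of the 4. With the length and GC trend removed, their median was -0.38 and 0 of the 4 passed (edgeR adjusted p = 0.104 to 0.271 over the listed genes). Malat1, a long noncoding RNA of nuclear speckles, had 6926, 6379, 9112 and 6540 scaled counts in controls and 6080, 5335, 3392 and 2879 with propionate. Neat1, the scaffold RNA of paraspeckles, had 4341, 5274, 6223 and 5881 in controls and 4686, 4286, 2979 and 3603 with propionate. In both, propionate replicates 3 and 4 were the lowest libraries, as in Pnisr, Prpf39 and Srsf5. Neither passed in the authors' deposited table (adjusted p = 0.257 for Malat1 and 0.0758 for Neat1). Handling and stress genes were listed in 6 cases, 3 higher and 3 lower. Among them Hspa1a had 255 ± 121 scaled counts in controls and 397 ± 92.4 with propionate, and Fos 61.9 ± 16.2 and 28.5 ± 11.4 (SD, n = 4). The part of nuclear RNA content or tissue handling in the differences of the splicing genes was not tested.

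Gene length moved with the direction of these genes and of the whole table. Length here is the value deposited for each gene, which is not its span on the chromosome. Prpf6, for example, has a length of 3859 bases but runs from base 181233661 to 181297453 of chromosome 2. The 7 genes under 2 kb, of which 6 are snRNP or LSm genes, were all higher, and the 8 genes over 8 kb were all lower. Between 2 and 4 kb 4 were higher and 4 lower, and between 4 and 8 kb 5 were higher and 6 lower. Among all tested genes 80.6% were higher under 2 kb, 65.8% from 2 to 4 kb, 43.7% from 4 to 8 kb and 16.4% over 8 kb. Across the 34 genes Spearman's rho with the log2 fold change was -0.65 for length and 0.54 for GC content of the longest annotated transcript. It was -0.38 and 0.42 across 1783 tested genes with a GC value, genes that share the same 8 libraries and are not independent. The lower genes had a median length of 6.60 kb and 41.8% GC, the higher genes 2.76 kb and 51.6% GC.

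**Figure D3:**
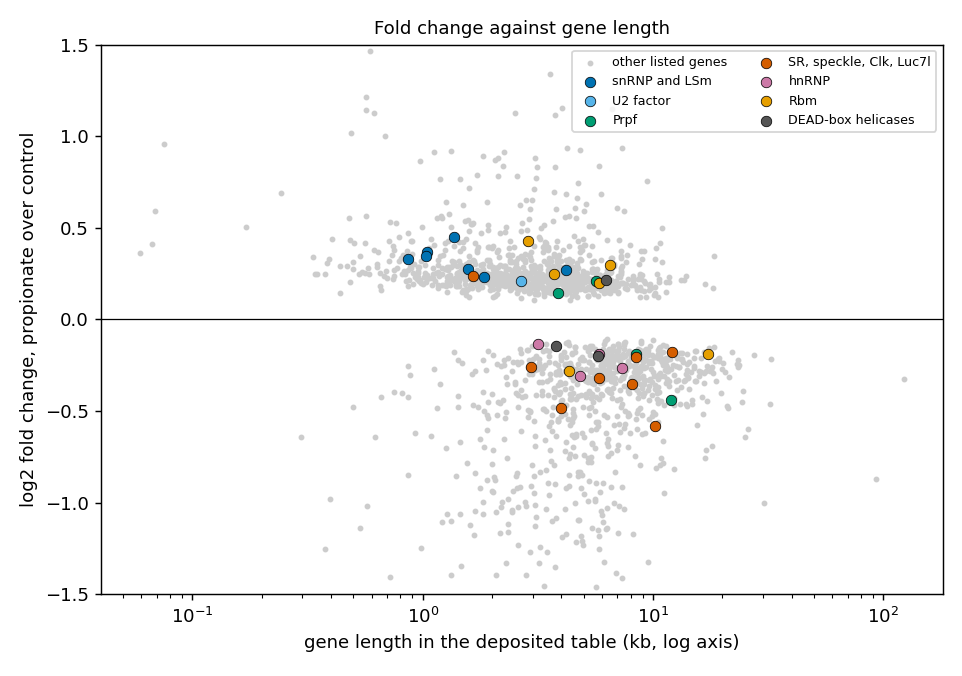
Each point is a gene, with its length in the deposited table on a log axis and its edgeR log2 fold change, in colour for 33 of the 34 genes and grey for other listed genes, of which those beyond 1.5 in either direction are not drawn. Short snRNP and LSm genes lie above 0 and the 7 coloured genes over 8 kb below 0, in the direction of most listed genes of their length, and the gap around 0 comes from the authors' selection.

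A trend with length and GC content, fitted in each library on the listed genes, was then removed. The median of all tested genes went from 0.16 to 0.023, and that of the 34 genes from -0.14 to 0.12. Then 25 were higher and 9 lower, and 11 had turned, 10 of the 18 lower genes and Sf3a2. Of all tested genes 980 were then higher and 803 lower. By edgeR over the listed genes 10 of 34 passed, beside 24% of all tested genes. This share too is near the background, in a list already selected on these libraries, and is not a result about these genes. The 10 were Snrpe, Snrpg, Snrpf, Lsm8, Prpf4, Rbm18, Ddx23 and Luc7l2 upward and Srsf2 and Ddx39b downward. Among them Luc7l2 was lower before. Snrpe stood at 0.62, Lsm8 at 0.57, Snrpf at 0.49 and Snrpg at 0.35, each larger than before the removal. In the same role Snrpb stood at 0.15, Snrnp25 at 0.12 and Lsm4 at 0.035, each smaller than before, with edgeR adjusted p-values of 0.0996, 0.515 and 0.674. The trend was fitted on the listed genes themselves, so any difference that genes of 1 length share is removed with it, and which of these scales is the better one was not tested.

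**Figure D4:**
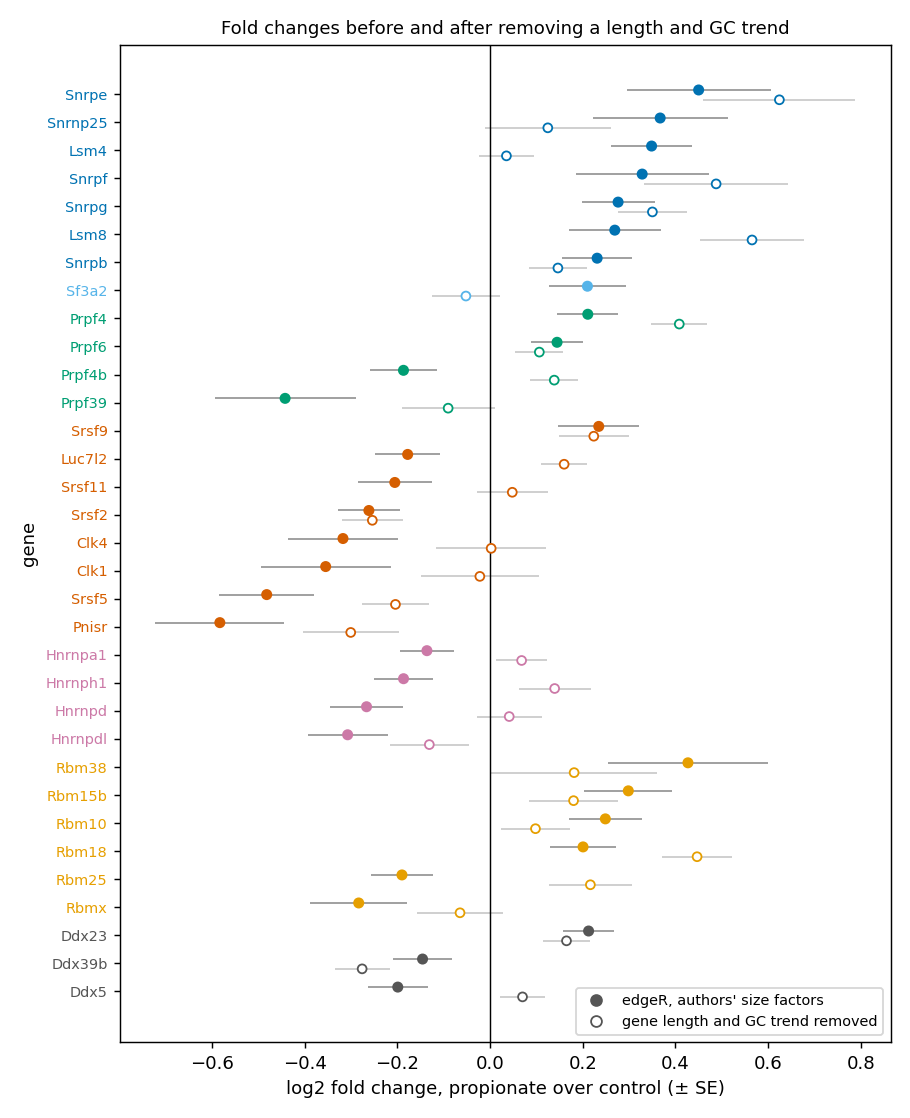
Filled points are edgeR log2 fold changes of 33 of the 34 genes with the authors' size factors and open points those with the length and GC trend removed, each ± SE, in colours of the roles. The 7 snRNP and LSm genes lie above 0 on both scales, whereas 3 of 4 hnRNP genes and Luc7l2, Srsf11 and Clk4, among others, cross 0 once the trend is removed.

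Transcript annotation, which the name patterns do not use, was also counted. Directions here are those before the trend removal. In GENCODE M21, 16 of the 18 lower genes (88.9%) have a transcript classed as a target of nonsense-mediated decay, against 5 of the 16 higher genes (31.2%). Such a transcript is annotated for 30.4% of all listed protein-coding genes that were lower and 25.4% of those that were higher. Among the splicing genes outside these families it is annotated for 7 of 9 (77.8%), all 4 lower genes and 3 of the 5 higher ones, so it is not particular to the lower genes named here. All 8 genes of the SR, speckle, CLK and Luc7l group have one, Srsf9, which was higher, included, and so do 3 of the 4 hnRNP genes and 2 of the 7 snRNP and LSm genes. Retained-intron transcripts are annotated for 13 of 18 lower and 10 of 16 higher genes, beside 57.6% and 56.6% of the lower and higher protein-coding genes of the table. The lower genes have more annotated transcripts of any kind, a median of 10.5 against 4.5, which moves with these shares. The counts are per gene, so the amounts of productive and decay-targeted transcripts are not measured here.

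**Figure D5:**
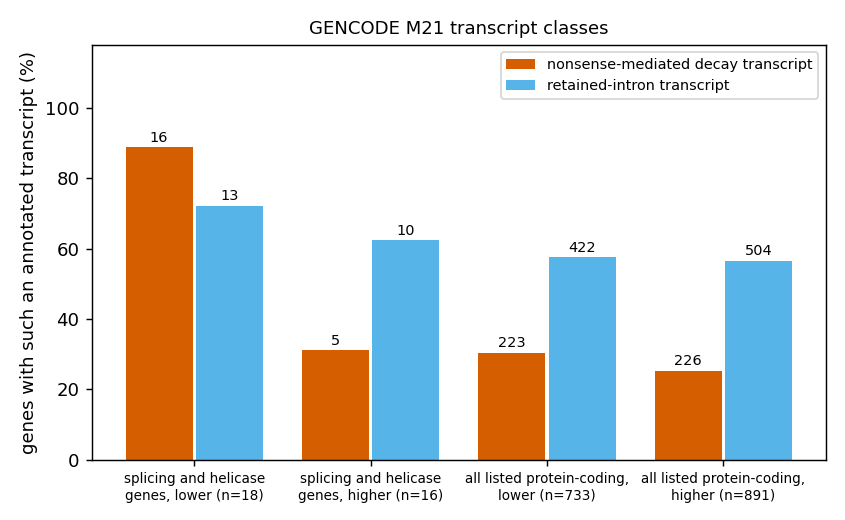
Bars give the percentage of genes with at least 1 transcript of the class in GENCODE M21, and the number above each bar is the count of genes. The lower splicing and helicase genes stand at 88.9% for nonsense-mediated decay transcripts, and the other 3 groups drawn lie between 25.4% and 31.2%. The splicing genes outside these families, at 77.8% of 9 genes, are not drawn.

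Single libraries weighed on these values. Propionate replicate 4 was the lowest propionate library in 14 of the 18 lower genes and the highest in 10 of the 16 higher genes. Without it the median log2 fold change of the lower genes was -0.19, beside -0.23 with all libraries, and that of the higher genes 0.21, beside 0.26. The groups again did not overlap in 18 of 34 genes (49.6% of all tested genes), and all 34 kept their direction. Their direction was also kept when any other library was left out. The edgeR calls over the listed genes were less steady, and so were those of all tested genes. Without control replicates 1, 2, 3 and 4 in turn, 14, 2, 0 and 4 of the 34 calls were left, beside 30.3%, 9.98%, 1.66% and 8.57% of all tested genes. Without propionate replicates 1, 2, 3 and 4 in turn, 25, 24, 1 and 3 were left, beside 76.8%, 63.8%, 7.02% and 8.54%.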

How the data were processed

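RNA of 4 control and 4 propionate kidney libraries from MRL-lpr mice was sequenced as paired reads of 150 bases, per the labels' protocols. One table was used. It holds read counts per gene, a scaled signal (counts divided by 1 size factor per library), FPKM, log2 fold changes and both raw and adjusted p-values, all deposited by the authors. The submitters' processing notes name DESeq2 and mm10. Aligner, counter and strandedness: not given in the sources used here. Among 1913 genes found in GENCODE M21 (GRCm38), 44 had the same start and end, so the build of its coordinates is uncertain. Each library's total came from its counts, FPKM and gene lengths.

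Genes were tested with the quasi-likelihood method of edgeR 4.0.16 (run in R 4.3.3), applied to the counts of all listed genes, with the authors' size factors, the default expression filter (1792 genes, all 34 of these families) and Benjamini-Hochberg adjustment over them. DESeq2 was version 1.42.0. Alternatives were TMM factors, total reads, no filter, adjustment over 16064 genes (recovered from the deposited p-values to a relative error of 4.03e-06), a length and GC trend removed by splines, the replicate number as a block, and each library left out. The edgeR test was first run on simulated counts with known changes.

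The genes, gene lists and tests were chosen with earlier results of these data known. By the naming rule, 26 of the 34 genes were taken for full values: the 4 smallest p-values per role, those past the authors' adjustment, and the 3 largest differences each way with a mean of at least 50 scaled counts in the higher group. The others are named as well, apart from results that are not reported here, which the counts include. Titles give replicate numbers, but same-numbered libraries did not all deviate together, so they were not taken as pairs. No 2 libraries were duplicates (chi-square per gene of 8.93 or more within groups).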

Additional observations from a re-analysis of the deposited data

Results flagged for a closer look

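In 3 of 68 groups of 4 libraries, 1 library stood apart from the other 3 by Dixon's criterion, where chance alone gives about 1 in 20. Ddx5 had 11466 scaled counts in control replicate 1, beside 10484 to 10646 in the other controls. Prpf4b had 1006 in control replicate 2, beside 1075 to 1087. Snrpe had 737 in propionate replicate 4, beside 573 to 599 in the other propionate libraries. With that library left out, edgeR gave Snrpe 0.36 on the log2 scale, beside 0.45 with all libraries.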

How the results depend on the processing

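With the authors' size factors edgeR called 16 of the 34 genes higher and 18 lower over the listed genes. Of all tested genes 90.2% were called. TMM factors from the listed genes gave 9 higher and 18 lower, beside 67.9% of all tested genes called. Adjustment over 16064 genes gave 0 higher and 0 lower, beside 0%. The length and GC trend removed gave 8 higher and 2 lower, beside 24%. Leaving out 1 library gave 0 to 12 higher and 0 to 15 lower, beside 1.66% to 76.8%. DESeq2 and no filter gave 16 and 18, beside 98.2% and 90.5%, and total reads 15 and 17, beside 83.7%. Over all listed genes the share higher among calls was 53.4% with the authors' size factors, 38.2% with TMM and 23.3% without control replicate 3. The direction of the 34 genes held under every alternative but the trend removal. Among the genes that turned with it, the log2 fold changes were 0.0024 for Clk4, 0.070 for Ddx5, 0.068 for Hnrnpa1, 0.041 for Hnrnpd, 0.14 for Hnrnph1, 0.16 for Luc7l2, 0.14 for Prpf4b, 0.22 for Rbm25, -0.052 for Sf3a2 and 0.048 for Srsf11. The cause was not tested. The replicate number as a block gave 14 higher and 16 lower, beside 87.1% of all tested genes called. Same-numbered libraries correlated at 0.258, 0.243, -0.109 and 0.204 in their deviations, and 2 of the 4 control libraries correlated best with their own number. Block and trend removal together, chosen after seeing the data, gave 7 higher and 3 lower, beside 28.1% of all tested genes, with 0.0054 for Clk4, 0.070 for Ddx5, 0.068 for Hnrnpa1, 0.045 for Hnrnpd, 0.13 for Hnrnph1, 0.16 for Luc7l2, 0.14 for Prpf4b, 0.21 for Rbm25, -0.054 for Sf3a2 and 0.049 for Srsf11. With 4 libraries a group and genes selected on these libraries, differences of this size rest on few samples, and genes outside the table are not analysed here.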
